A study of Mus musculus with 18 samples.

Results

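The genes described here encode the steps by which the liver takes up, activates and oxidises fatty acids, together with target genes of the nuclear receptor PPARA that serve as its usual read-outs. The list holds 40 genes. A gene was taken where the array's platform annotation gave a probe set with that gene's symbol alone, and where several such probe sets existed the brightest over all mice was used. This gave 38 genes with a value, of 12880 genes tested. Cpt1b and Acsl1 had no single-symbol probe set and are not analysed here. The members fall into 7 roles: the receptor (1 gene), uptake and activation (3), the carnitine shuttle (4), mitochondrial beta-oxidation (13), peroxisomal genes (10), ketogenic genes (2) and other PPARA targets (5).

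PPARA is a fatty acid-activated transcription factor that binds DNA with the retinoid X receptor and drives hepatic fatty acid catabolism, most strongly in fasting. Long-chain fatty acids enter mitochondria through the carnitine shuttle and are shortened by beta-oxidation, while very long and branched chains begin in peroxisomes. The resulting acetyl-CoA feeds the citric acid cycle or is turned into ketone bodies.

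Livers came from male mice, 5 weeks old at the start, whose strain the labels spell as both C56BL/6J and C57BL/6J. The mice ate AIN-93G diet with 0% quercetin (control), 0.05% quercetin or 1% quercetin for 20 weeks, quercetin being a plant flavonol. Each diet was fed to 12 mice housed 3 per cage, and RNA of 6 mice per diet was hybridised, 1 mouse per Affymetrix array. The cage of each mouse is not in the labels, so the p-values treat the 6 mice of a diet as independent.

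Levels below are log2 of the array intensity after quantile normalisation, with 16 added before the log, so that 4 is the floor of the scale. The deposited arrays were not on a common scale, with medians over probe sets between 14.2 and 21.99. Differences are log2 differences with their standard error (SE) from limma, which shrinks each gene's variance towards that of all genes, and adjusted p-values are Benjamini-Hochberg values over all 12880 genes. A linear fold change derived from them understates that of dim genes. The hepatocyte marker Alb lay between 13.2 and 13.5 on all arrays, and 7 of 8 hepatocyte markers were measured. Most of these markers lie near the top of the scale, where quantile normalisation leaves values little room to differ. Their small deviations therefore do not measure hepatocyte content. Control replicate 3 stood apart from the other control mice in these genes, and counts without it are given with the single mice. In whole liver, fewer cells of a type and less RNA per cell cannot be told apart.

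The promoters of 4 members are shown because the results turn on 3 of them (Ppara, Acadm and Eci2) and because the fourth, Fabp1, held the only match to the PPARA element. Sequences are RefSeq windows on GRCm38.p6 from 250 bases before to 50 bases after the gene start, in the gene's direction. They are Fabp1 at chr6:71199629-71199928 (plus strand), Ppara at chr15:85735526-85735825 (plus), Acadm at chr3:153944594-153944893 (minus) and Eci2 at chr13:34994095-34994394 (minus). Capitals mark the DR1 match in Fabp1, the GC box in Ppara and Eci2, and the hexamer AGGTCA, read on the opposite strand, in Acadm.
Fabp1: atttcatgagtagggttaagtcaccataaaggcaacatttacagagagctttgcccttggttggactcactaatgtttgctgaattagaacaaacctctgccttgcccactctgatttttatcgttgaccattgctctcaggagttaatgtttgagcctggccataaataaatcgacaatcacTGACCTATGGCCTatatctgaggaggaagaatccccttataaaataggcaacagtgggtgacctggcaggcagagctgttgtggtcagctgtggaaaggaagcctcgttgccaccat
Ppara: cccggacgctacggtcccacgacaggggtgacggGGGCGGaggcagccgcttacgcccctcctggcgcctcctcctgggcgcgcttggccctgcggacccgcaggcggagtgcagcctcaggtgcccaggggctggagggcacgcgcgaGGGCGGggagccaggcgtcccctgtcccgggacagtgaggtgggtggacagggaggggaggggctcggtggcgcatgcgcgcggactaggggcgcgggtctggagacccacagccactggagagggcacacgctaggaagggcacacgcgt
Acadm: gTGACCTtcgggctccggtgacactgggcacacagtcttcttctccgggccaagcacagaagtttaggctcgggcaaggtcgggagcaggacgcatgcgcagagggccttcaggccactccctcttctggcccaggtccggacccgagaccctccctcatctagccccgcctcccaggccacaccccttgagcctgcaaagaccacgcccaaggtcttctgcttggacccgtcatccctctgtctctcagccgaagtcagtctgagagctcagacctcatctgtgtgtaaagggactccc
Eci2: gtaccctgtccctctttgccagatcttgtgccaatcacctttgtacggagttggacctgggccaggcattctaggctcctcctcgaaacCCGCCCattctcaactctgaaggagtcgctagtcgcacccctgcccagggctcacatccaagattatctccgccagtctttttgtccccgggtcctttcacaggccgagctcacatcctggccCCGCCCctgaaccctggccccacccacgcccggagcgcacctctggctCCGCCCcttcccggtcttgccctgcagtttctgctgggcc

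Windows were found for 31 of the 40 listed genes and searched on both strands. The DR1 element, the direct repeat bound by PPARA with its partner, was spelled AGGNCANAGGNCA. It matched in 1 of 31 genes, Fabp1, beginning 67 bases before the start, against 0.381% of all 32851 windows and 0.375% of tested genes with a window. The hexamer AGGTCA, which that Fabp1 match also contains, was present in 6 of 31 genes (19.4%: Cd36, Slc27a2, Fabp1, Cpt1a, Acadvl and Acadm), against 16.3% of all windows and 15.7% of tested genes with a window. The GC box GGGCGG, a general promoter element, was present in 24 of 31 genes (77.4%), against 35.7% of all windows and 65.1% of tested genes with a window. CCAAT was present in 14 genes (45.2%), against 37.4% of all windows and 42.3% of tested genes with a window, and TATAAA in 2 genes (6.45%, Fabp1 and Fgf21), against 13.6% and 9.63%. A match describes the letters of the window only.

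In livers of mice fed 1% quercetin, 36 of the 38 genes had a higher mean than in control livers, and the median difference over the members was 0.17 on the log2 scale. Over all genes tested, 49.4% lay above 0, 50.6% below it, and the median difference was 0.00. No member passed the adjusted p, whose lowest value among the members was 0.380, and over all genes 1 gene did so (0.00776%), Tead1, named after its value was seen because it was the only one. At an unadjusted p under 0.05, 10 members were higher and none was lower, against 4.33% higher and 4.49% lower over all genes. For 0 members did the 1% mice lie wholly above the control mice, which held for 0.334% of all genes. The split depended on the scaling: 32 of 38 members were above 0 with a median shift per array, and 30 of 38 with the values as deposited, where 2 members were at an unadjusted p under 0.05. With the mean over each gene's probe sets the count was 31. Shares over all genes under these alternatives are not given here. Hepatocyte markers deviated from their 18-mouse mean by -0.05 to 0.02 in the 1% mice, against -0.04 to 0.04 in the control mice. Quantile normalisation limits the deviations of such bright markers, as stated above. Endothelial markers deviated by -0.14 to 0.19 in the 1% mice, against -0.28 to -0.06 in the control mice.

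**Figure D1:**
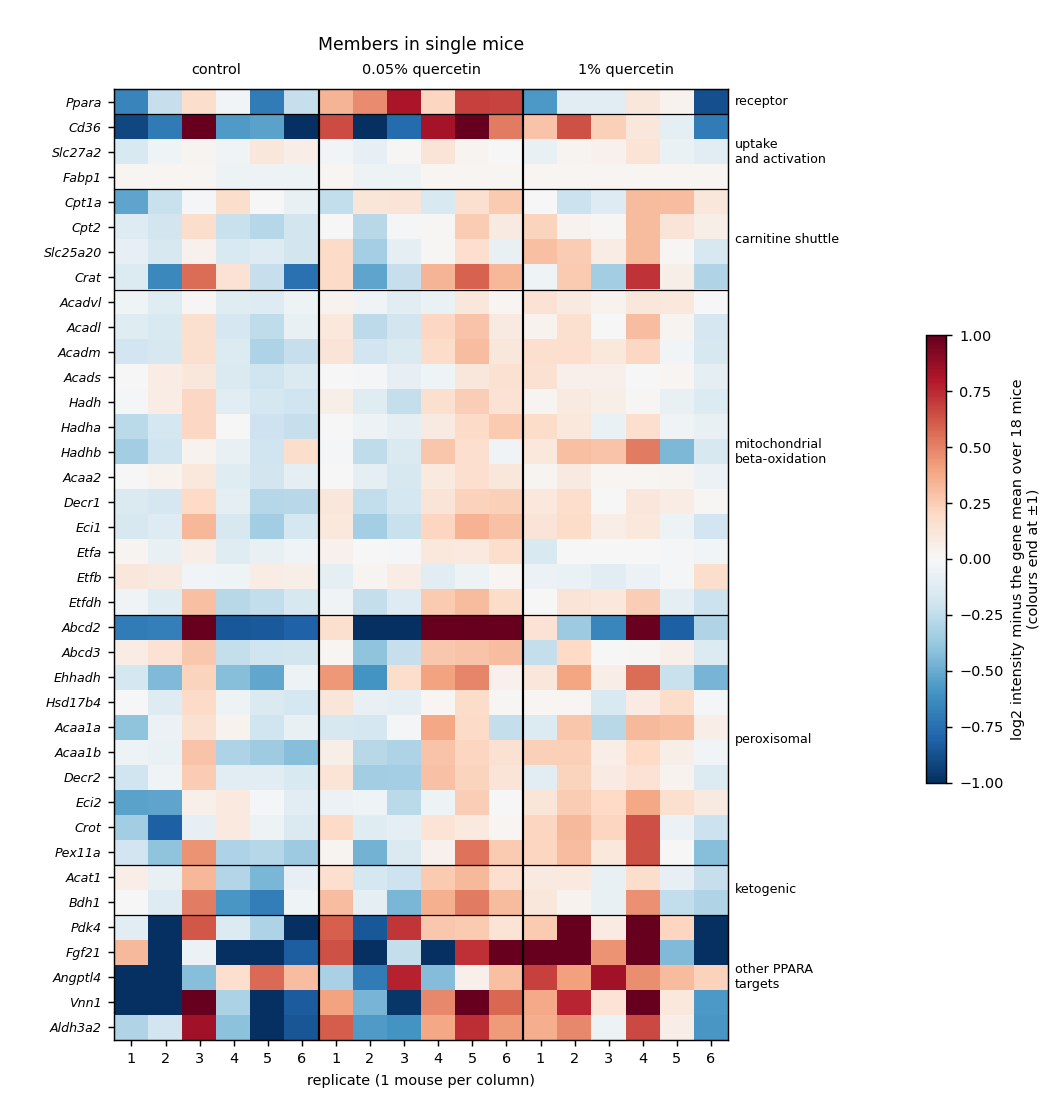
Heat map of the 38 members (rows, grouped by role) in 18 mice (columns, 6 per diet). Colour is the log2 intensity minus the gene's mean over the 18 mice, and colours end at ±1. Control replicate 3 is mostly red, while the other 5 control mice are mostly blue.

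The receptor itself showed little difference in its mean. Ppara had a lowest, median and highest level of 9.13, 9.89 and 10.12 in the 1% mice, against 9.31, 9.77 and 10.18 in the control mice. The groups overlapped throughout, and the difference was 0.02 ± 0.18 (SE, limma adjusted p = 0.981). Its other 2 probe sets above the filter differed by -0.18 and -0.02.

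Among the carnitine shuttle genes all 4 were higher, with a median difference of 0.24. Cpt2, the inner-membrane carnitine palmitoyltransferase, lay at 10.26, 10.34 and 10.57 (lowest, median and highest) in the 1% mice, against 9.96, 10.06 and 10.42 in the control mice. All 6 of the 1% mice were above the control mean and 2 were above every control mouse, and the difference was 0.27 ± 0.09 (limma adjusted p = 0.404). A second, dim Cpt2 probe set differed by -0.24. Slc25a20, the carnitine-acylcarnitine translocase, lay at 10.78, 11.10 and 11.25 in the 1% mice, against 10.76, 10.80 and 10.98 in the control mice (difference 0.24 ± 0.10, limma adjusted p = 0.478). Here 4 of the 1% mice exceeded every control mouse. Cpt1a, the outer-membrane transferase that admits long chains and is the regulated step, differed by 0.17 ± 0.12 (adjusted p = 0.715), with 10.22, 10.48 and 10.75 in the 1% mice against 9.91, 10.39 and 10.60 in the control mice. Crat, carnitine acetyltransferase, differed by 0.23 ± 0.23.

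Of the 13 mitochondrial beta-oxidation genes 12 were higher, with a median difference of 0.15, and the differences were small. Acadvl, the very-long-chain acyl-CoA dehydrogenase, lay at 11.47, 11.56 and 11.61 in the 1% mice, against 11.34, 11.38 and 11.47 in the control mice. The ranges met only at the edge, with 5 of 6 of the 1% mice above every control mouse, and the difference was 0.16 ± 0.06 (limma adjusted p = 0.451). Acadm, the medium-chain dehydrogenase, lay at 12.12, 12.42 and 12.48 in the 1% mice, against 11.97, 12.10 and 12.44 in the control mice (difference 0.22 ± 0.10, limma adjusted p = 0.540). The highest control value was that of control replicate 3. Decr1, the 2,4-dienoyl-CoA reductase that prepares polyunsaturated chains, lay at 11.31, 11.40 and 11.49 in the 1% mice, against 11.02, 11.15 and 11.51 in the control mice (difference 0.21 ± 0.10, limma adjusted p = 0.554). All 6 of the 1% mice were above the control mean of Decr1, and 0 were above every control mouse.

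The other mitochondrial members had unadjusted p-values above the threshold. Acadl, Hadha, Hadhb, Eci1 and Etfdh differed by 0.12 to 0.20, and Acads, Acaa2, Hadh and Etfa by 0.00 to 0.08. Hadha and Hadhb form the trifunctional protein. Etfb, the beta subunit of the electron transfer flavoprotein, was the only mitochondrial member below 0, at -0.07 ± 0.07 (adjusted p = 0.805), while its partner subunit Etfa differed by 0.00 ± 0.06.

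All 10 peroxisomal genes were higher, with a median difference of 0.23. Eci2, a peroxisomal enoyl-CoA isomerase, had the smallest p of all members, with 10.57, 10.67 and 10.87 in the 1% mice against 9.95, 10.42 and 10.58 in the control mice. The difference was 0.38 ± 0.12 (limma adjusted p = 0.380), a linear fold of 1.30, and 5 of the 6 1% mice exceeded every control mouse. Crot, which makes carnitine esters for export from the peroxisome, lay at 12.27, 12.69 and 13.13 in the 1% mice, against 11.66, 12.36 and 12.58 in the control mice (difference 0.41 ± 0.15, limma adjusted p = 0.414). Acaa1b, a peroxisomal thiolase, lay at 13.32, 13.48 and 13.59 in the 1% mice, against 12.92, 13.16 and 13.63 in the control mice (difference 0.28 ± 0.13, limma adjusted p = 0.521). In both genes all 6 of the 1% mice were above the control mean. Acaa1a and Acaa1b are close copies, so their probe sets may share signal.

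The other peroxisomal genes did not reach the unadjusted threshold. Pex11a, a peroxisome division factor, differed by 0.32 ± 0.18, and Ehhadh, the bifunctional enzyme, by 0.31 ± 0.19. Acaa1a, Decr2, Abcd2, Hsd17b4 and Abcd3 differed by 0.18, 0.10, 0.09, 0.07 and 0.00 in that order. Abcd2 lay close to the floor of the scale in 5 of the 6 control mice and at 7.75 in control replicate 3, and its difference had an SE of 0.58.

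Both ketogenic genes showed small differences. Acat1, the mitochondrial acetoacetyl-CoA thiolase, lay at 11.88, 12.12 and 12.29 in the 1% mice, against 11.65, 12.03 and 12.44 in the control mice (difference 0.08 ± 0.13, adjusted p = 0.892). Bdh1, the 3-hydroxybutyrate dehydrogenase, lay at 10.98, 11.25 and 11.73 in the 1% mice, against 10.58, 11.19 and 11.79 in the control mice (difference 0.15 ± 0.20, adjusted p = 0.857). For both genes the 1% mice lay within the control range. Control replicate 3 had the highest ketogenic deviation of the controls (0.42), and without it the differences were 0.17 for Acat1 and 0.29 for Bdh1. That mouse was singled out by the members' own values, so these differences describe its weight only. A second Bdh1 probe set differed by -0.06.

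The other PPARA targets had the largest differences and also the largest spread, with a median difference of 0.83 and all 5 genes higher. Fgf21, a hepatic hormone induced by fasting, lay at 5.91, 8.19 and 9.82 in the 1% mice, against 5.74, 6.42 and 7.71 in the control mice. The difference was 1.45 ± 0.62 (limma adjusted p = 0.4999), a linear fold of 2.74, with 4 of the 1% mice above every control mouse and 1 near the control minimum. Angptl4, an inhibitor of lipoprotein lipase, lay at 10.18, 10.39 and 10.78 in the 1% mice, against 8.23, 9.82 and 10.51 in the control mice. Its 1% mice were close together (SD 0.23), while the control mice were wide apart (SD 0.97), and the difference was 0.93 ± 0.34 (limma adjusted p = 0.442). A dim second Angptl4 probe set differed by 0.15. Vnn1, a pantetheinase, differed by 0.83 ± 0.42, Pdk4, a kinase that inhibits pyruvate dehydrogenase, by 0.69 ± 0.38, and Aldh3a2, a fatty aldehyde dehydrogenase, by 0.48 ± 0.30, each above the unadjusted threshold.

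Uptake and activation genes showed the smallest median difference of the multi-gene roles, at 0.04. This median of 3 genes is the value of Fabp1, so the ranking rests on that gene. Cd36, a fatty acid translocase, differed by 0.44 ± 0.45, and Slc27a2, a very-long-chain acyl-CoA synthetase, by -0.005 ± 0.07. Fabp1, the liver fatty acid-binding protein, was the brightest or second brightest probe set on every array, so quantile normalisation sets its value by rank. Its difference of 0.04 ± 0.05 became -0.10 with the values as deposited and -0.05 with a median shift. A second, also bright Fabp1 probe set differed by -0.12 at 1% and by -0.10 at 0.05%, both relative to control. The sign of the Fabp1 difference is therefore not settled.

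**Figure D2:**
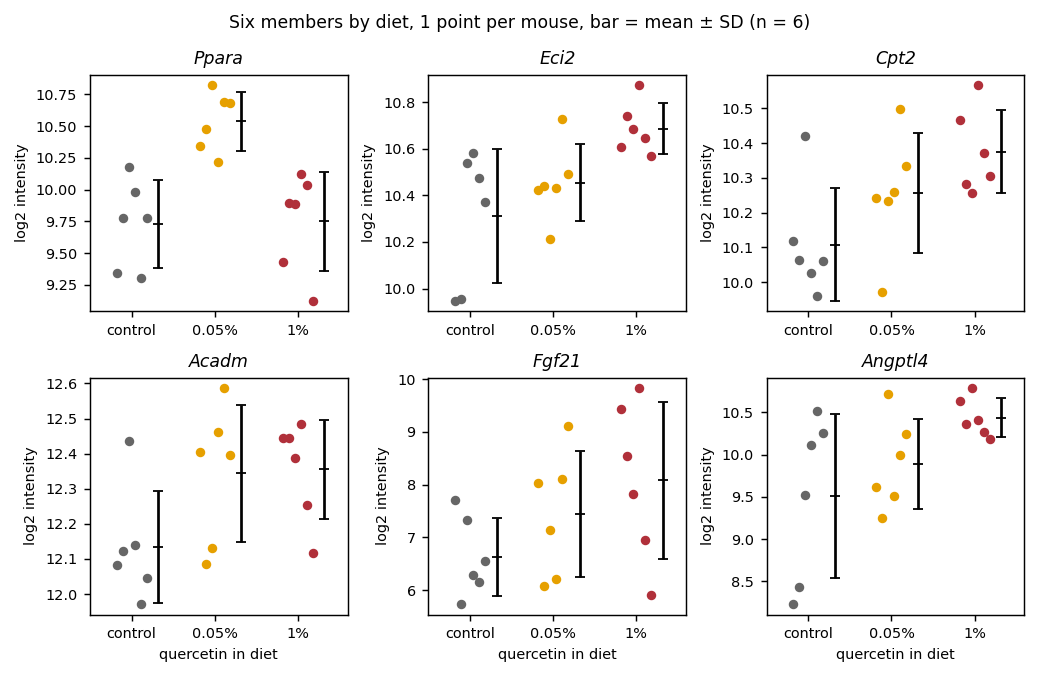
Log2 intensity of 6 members in single mice (points, 6 per diet) with the mean ± SD of each diet beside them. The 6 mice on 0.05% quercetin lie above all mice of both other diets for Ppara, whereas Eci2, Cpt2, Fgf21 and Angptl4 have their highest mean at 1%.

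Genes next to these in the same pathways were counted from a list of 43, of which 37 were measured. In the 1% mice 27 of 37 had a higher mean than in controls, with a median of 0.10, against 49.4% of all genes above 0. At an unadjusted p under 0.05 there were 9 higher and 0 lower, against 4.33% higher and 4.49% lower over all genes, with 0 passing the adjusted p. By role, 5 of 5 acyl-CoA thioesterases, 5 of 5 lipid droplet genes and 2 of 2 omega-oxidation genes were higher, against 5 of 9 peroxisomal and 4 of 7 mitochondrial companions. Slc22a5, the plasma membrane carnitine transporter, lay at 8.54, 8.86 and 9.53 in the 1% mice, against 7.03, 8.05 and 8.51 in the control mice. The groups did not overlap, which held in that direction for 0.334% of all genes, and the difference was 1.00 ± 0.24 (limma adjusted p = 0.277), a linear fold of 2.004. Acot2, a mitochondrial acyl-CoA thioesterase, differed by 1.09 ± 0.30 (limma adjusted p = 0.303), but a second Acot2 probe set differed by 0.06. Plin2, a lipid droplet coat protein, differed by 0.45 ± 0.15 (limma adjusted p = 0.387), and Ech1, a dienoyl-CoA isomerase, by 0.42 ± 0.14 (limma adjusted p = 0.400).

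In livers of mice fed 0.05% quercetin, 37 of the 38 genes had a higher mean than in control livers, against 46.9% of all genes (53.1% were lower), with a median of 0.16 for the members and -0.01 over all genes. With limma 0 members passed the adjusted p (0% of all genes did), and at an unadjusted p under 0.05 there was 1 higher (2.6% of all genes) and 0 lower (2.83%). The 2 quercetin groups are set against the same 6 control mice, so their splits are not separate observations. With a median shift or with the values as deposited, 32 of 38 were above 0. Shares over all genes with these scalings are not given here, so that count describes the processing only.

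Ppara was the single member below the unadjusted threshold at the lower dose, and that count is near the share over all genes. It lay at 10.22, 10.58 and 10.82 (lowest, median and highest) in the 0.05% mice, against 9.31, 9.77 and 10.18 in the control mice. The groups did not overlap, as held for 0.194% of all genes in that direction, and the difference was 0.81 ± 0.18 (limma adjusted p = 0.416), a linear fold of 1.76. Its other 2 probe sets above the filter differed in the same direction by 0.40 and 0.32. Marker lists of other cell types also differed by diet. The 6 endothelial markers, all measured, had a mean deviation from their 18-mouse mean of 0.05 to 0.21 in the 0.05% mice, against -0.28 to -0.06 in the control mice. The 4 measured of 6 neutrophil markers had -1.03 to -0.20 in the 0.05% mice, against -0.67 to 1.38 in the control mice, with Ly6g and Camp not measured above the filter. Their part in the Ppara difference was not tested.

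None of the other members reached the unadjusted threshold at 0.05%. The largest of their differences were 0.82 ± 0.62 for Fgf21, 0.76 ± 0.42 for Vnn1, 0.67 ± 0.58 for Abcd2, 0.65 ± 0.45 for Cd36 and 0.63 ± 0.38 for Pdk4, all with wide errors. Acadm lay at 12.09, 12.40 and 12.59 in the 0.05% mice, against 11.97, 12.10 and 12.44 in the control mice (difference 0.21 ± 0.10, limma adjusted p = 0.919). Ehhadh lay at 10.89, 11.78 and 11.98 in the 0.05% mice, against 10.97, 11.18 and 11.71 in the control mice (difference 0.39 ± 0.19, adjusted p = 0.919). Ranges overlapped in both genes, and the lowest Ehhadh level belonged to a 0.05% mouse. Hadha lay at 10.08, 10.22 and 10.44 in the 0.05% mice, against 9.90, 9.98 and 10.38 in the control mice (difference 0.18 ± 0.09, adjusted p = 0.921).

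By role, the 0.05% medians against control were 0.15 for the carnitine shuttle, 0.10 for mitochondrial beta-oxidation, 0.16 for peroxisomal genes and 0.63 for the other PPARA targets. Cpt1a differed by 0.15 ± 0.12 (10.18, 10.56 and 10.69 in the 0.05% mice), although its other probe sets differed by -0.06 and 0.01. The ketogenic genes differed by 0.18 ± 0.13 for Acat1 (11.91, 12.28 and 12.44 in the 0.05% mice) and 0.32 ± 0.20 for Bdh1 (10.81, 11.59 and 11.80 in the 0.05% mice), with a second Bdh1 probe set at 0.14. Etfb was the only member below 0, at -0.07 ± 0.07.

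Of the 37 companion genes 26 were higher at 0.05%, with a median of 0.06, against 46.9% of all genes above 0. At an unadjusted p under 0.05 there were 3 higher and 0 lower, against 2.6% higher and 2.83% lower over all genes. Nr1d1, a circadian repressor, lay at 5.45, 6.08 and 6.80 in the 0.05% mice, against 4.34, 4.93 and 5.68 in the control mice (difference 1.05 ± 0.33, limma adjusted p = 0.821). Over 10 measured clock genes of 11 listed, the mean deviation was -0.39 to 0.32 in the 0.05% mice, against -0.19 to 0.63 in the control mice. Opposite changes cancel in that mean, since the single clock genes differed by -0.90 (Per1) to 1.05 (Nr1d1). Per1 lay at 5.13, 5.78 and 6.26 in the 0.05% mice, against 5.96, 6.61 and 7.18 in the control mice. Acot1 and Acot2, related thioesterases, differed by 1.05 ± 0.40 (adjusted p = 0.875) and 0.83 ± 0.30 (adjusted p = 0.856), with the second Acot2 probe set at 0.05.

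**Figure D3:**
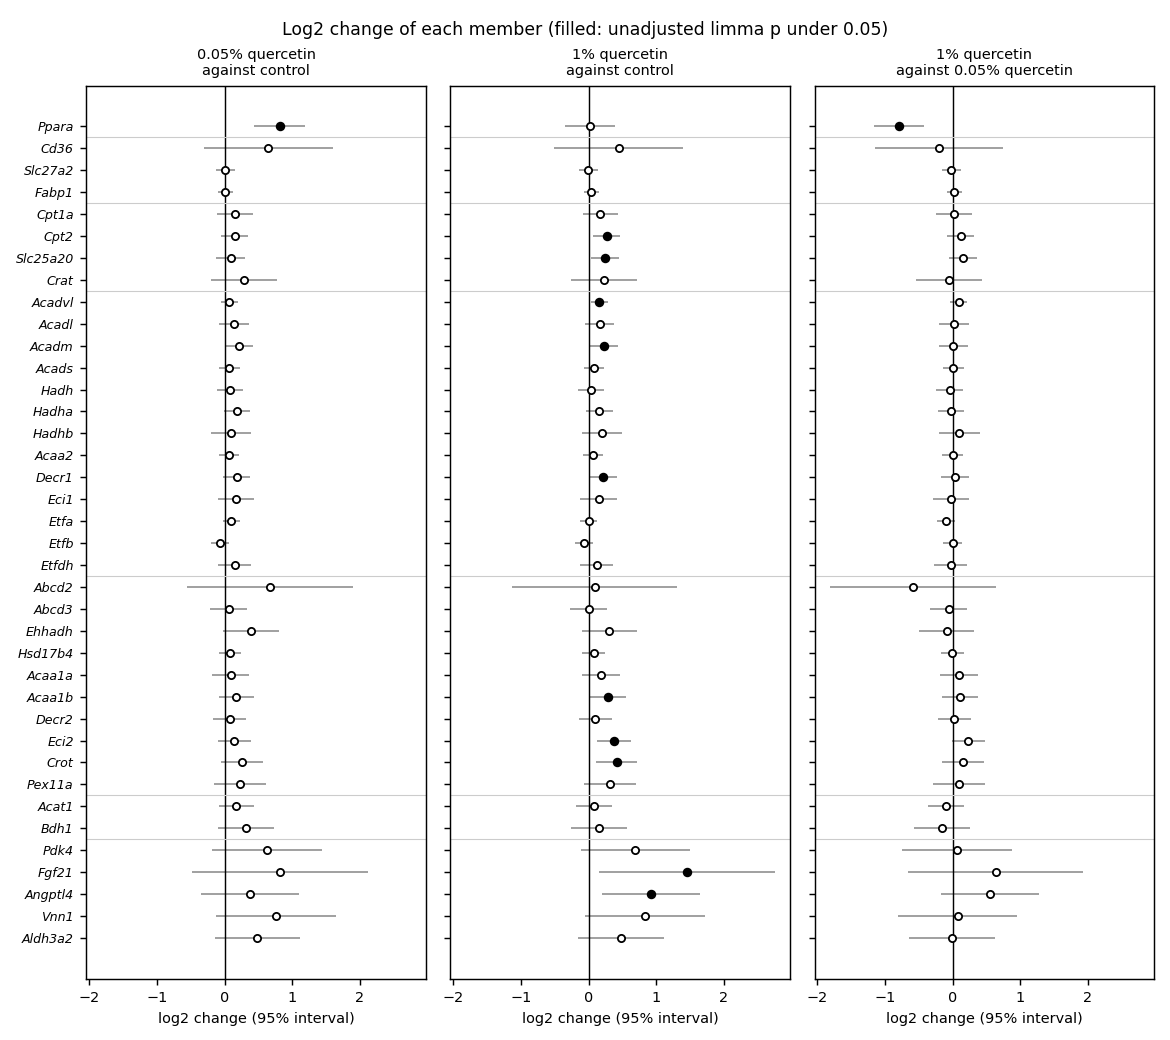
Log2 change of each of the 38 members with its 95% interval, by comparison (panels, common x axis) and ordered by role. Filled points have an unadjusted limma p under 0.05, with 1 such gene in the left panel, 10 in the middle and 1 in the right.

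Set directly against each other, the 1% and 0.05% diets did not separate the members as a set. In the 1% mice 20 of 38 genes were higher than in the 0.05% mice and 18 were lower (51.2% and 48.8% of all genes), with a median of 0.01 for the members and 0.00 for all genes. With a median shift the count was 24, and with the values as deposited 14. Below the unadjusted threshold of 0.05 there were 0 higher members (5.04% of all genes) and 1 lower one (4.02%), and with limma 0 members passed the adjusted p (0% of all genes).

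The single member below that threshold was Ppara. It lay at 9.13, 9.89 and 10.12 in the 1% mice, against 10.22, 10.58 and 10.82 in the 0.05% mice. All 6 of the 1% mice were below every 0.05% mouse, as held for 0.225% of all genes in that direction, and the difference was -0.79 ± 0.18 (limma adjusted p = 0.248). The other Ppara probe sets differed by -0.58 and -0.34. The endothelial marker list had -0.14 to 0.19 in the 1% mice, against 0.05 to 0.21 in the 0.05% mice. The neutrophil list had -0.24 to 1.10 in the 1% mice, against -1.03 to -0.20 in the 0.05% mice. Their part in this difference was not tested, and the comparison shares its 0.05% mice with the one against control.

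Next by p were Eci2, Etfa and Angptl4, all above the unadjusted threshold. Eci2 differed by 0.23 ± 0.12 (adjusted p = 0.577), with 10.57, 10.67 and 10.87 in the 1% mice against 10.21, 10.44 and 10.73 in the 0.05% mice. Etfa, the alpha subunit of the electron transfer flavoprotein, lay at 11.71, 11.86 and 11.86 in the 1% mice, against 11.85, 11.93 and 12.04 in the 0.05% mice (difference -0.10 ± 0.06, adjusted p = 0.665). Angptl4 lay at 10.18, 10.39 and 10.78 in the 1% mice, against 9.25, 9.81 and 10.71 in the 0.05% mice (difference 0.55 ± 0.34, adjusted p = 0.667), with its dim probe set at 0.22. All 6 of the 1% mice were above the 0.05% mean of Eci2, and the ranges of all 3 genes overlapped.

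Cpt1a differed by 0.02 ± 0.12 between the 2 doses (95% interval -0.24 to 0.28), while its other probe sets differed by 0.25 and 0.08. Acat1 differed by -0.09 ± 0.13 (95% interval -0.36 to 0.17), with a dimmer probe set at -0.20, and Bdh1 by -0.16 ± 0.20 (-0.57 to 0.25). These intervals leave room for differences in either direction. Among companions, Nr1d1 differed by -0.98 ± 0.33 and the coactivator Ppargc1b by -0.64 ± 0.26. Acad9, an acyl-CoA dehydrogenase needed for complex I assembly, differed by -0.42 ± 0.18, and its second probe set by -0.17. Slc22a5 differed by 0.54 ± 0.24, with 0.19 for a dim probe set, and of the 37 companions 23 lay above 0, against 51.2% of all genes. Past the unadjusted threshold 1 was higher and 3 were lower, against 5.04% higher and 4.02% lower over all genes.

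Single mice were summarised by the median over the 38 members of their deviations from the 18-mouse means. Its diet means were -0.11 (control), 0.04 (0.05%) and 0.07 (1%), and the SD within a diet was 0.14, 0.19 and 0.13 in the same order (n = 6 each). In the 6 control mice this median ran from -0.22 to 0.18, in the 0.05% mice from -0.24 to 0.24 and in the 1% mice from -0.15 to 0.23. The median deviation over all genes lay between -0.04 and 0.04 in each mouse. The 3 diets overlapped in this summary.

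Control replicate 3 stood apart from its group. Its median deviation was 0.18, with 33 of 38 members above their own 18-mouse median, against -0.22 to -0.13 and 4 to 6 members in the other 5 control mice. It was highest in its group for Cd36, Cpt2, Acadm, Eci1, Pex11a and Vnn1, among others. Its hepatocyte marker deviation was 0.02 and its endothelial one -0.08, both within the range of the other control mice, whereas its skeletal muscle deviation (3 of 6 markers measured) of 0.31 was the highest of the controls. Its Kupffer cell and neutrophil deviations, -0.42 and -0.67, were the lowest of the controls and its lymphocyte deviation, 0.30, the highest. The part of these in its member levels was not tested, and that mouse stayed in the fit.

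The quercetin mice lay on both sides. On 0.05%, replicates 1, 4, 5 and 6 had 27, 30, 35 and 30 members above the 18-mouse median, whereas replicates 2 and 3 had 4 and 8. Replicates 2 and 3 still had high Ppara, with deviations of 0.47 and 0.82. On 1%, replicates 1, 2 and 4 had 28, 34 and 33 members above it, replicates 3 and 5 had 19 each, and replicate 6 had 6. Ppara deviations on 1% were -0.57, -0.11, -0.12, 0.12, 0.03 and -0.88 in replicates 1 to 6, lowest in the mouse with 6 members above the median.

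**Figure D4:**
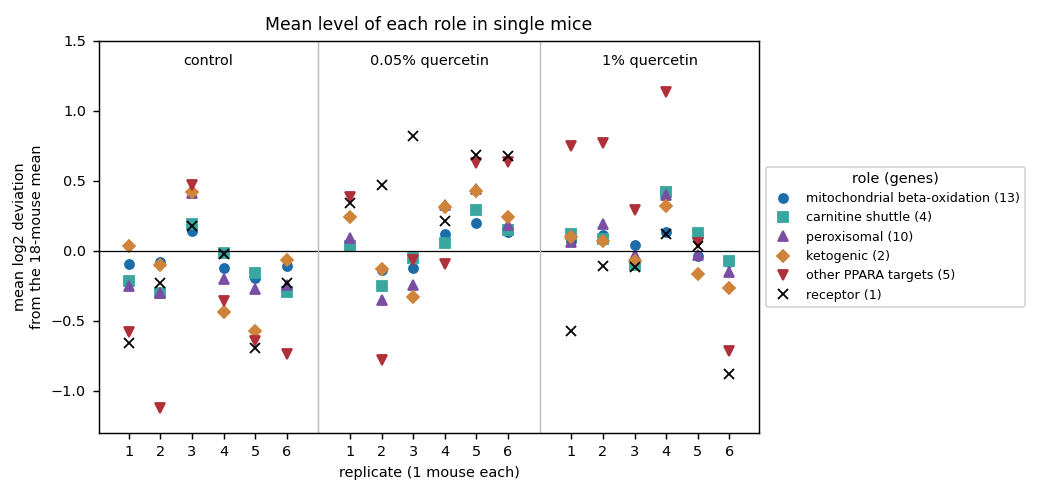
Mean log2 deviation from the 18-mouse mean for 6 roles in each mouse (x axis, 6 mice per diet). The receptor (crosses) lies at 0.21 to 0.82 in all 6 mice on 0.05% quercetin, including replicates 2 and 3, whose other roles lie below 0.

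Leaving out single mice moved these counts. Without control replicate 3, the members at an unadjusted p under 0.05 numbered 16 at 1% (4.33% of all genes higher) and 15 at 0.05% (3.88%), both relative to control. The median differences of the members were then 0.23 at 1% and 0.23 at 0.05%, and Ppara differed by 0.90 at 0.05%. That mouse was singled out by the members' own values, so these counts describe its weight only. For 1% against control the count was 5 without 1% replicate 1, 2 or 4, and 6 without control replicate 4 or 5. For 0.05% against control it was 6 and 7 without 0.05% replicates 2 and 3, 3 without 1% replicate 6 and 2 without control replicate 4. The shares of all genes called in these further runs are not given here.

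The members varied together from mouse to mouse. With each diet set to a mean of 0, the median Pearson correlation over the 703 pairs of members was 0.56 across 18 mice (Spearman 0.54), and 56.5% of pairs exceeded 0.5. Between members and the other genes tested the median was -0.02 and 8.06% of pairs exceeded 0.5. Without control replicate 3 the members' median was 0.49. These are descriptions, since all pairs share the same 18 arrays and their normalisation.

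**Figure D5:**
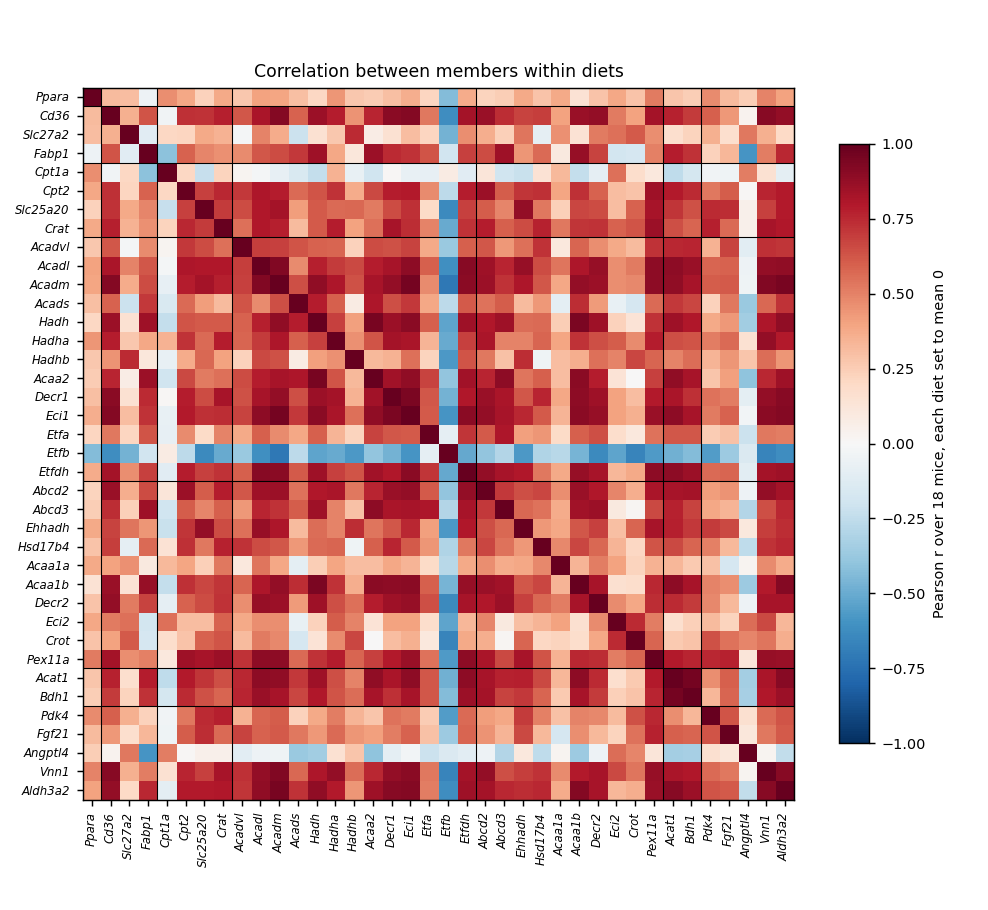
Pearson correlation between the 38 members over 18 mice after setting each diet's mean to 0 (rows and columns ordered by role, red positive, blue negative). Most pairs are positive, with a median of 0.56, while Etfb is mostly negative and Ppara, Cpt1a and Angptl4 are pale.

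The genes most correlated with the rest came from several roles. The median correlation with the other members was 0.79 for Aldh3a2, 0.78 for Acadm, 0.78 for Acadl and 0.76 for Decr1, and among peroxisomal and ketogenic genes 0.76 for Pex11a and 0.75 for Acat1. Ppara itself had 0.30. Cpt1a and Angptl4 were near 0, at -0.04 each, and Etfb was at -0.48. Eci2 and Crot, which had among the smallest p-values at 1%, had 0.38 and 0.36.

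The spread between mice of a diet ranged widely, also within roles. Over the peroxisomal genes the residual SD ran between 0.12 (Hsd17b4) and 1.12 (Abcd2). Over the uptake and activation genes it ran between 0.03 (Fabp1) and 0.87 (Cd36). Quantile normalisation sets the Fabp1 value by rank, so its SD is not a measure of the spread between mice. The residual SD of Fgf21 was 1.18, higher than that of 99.8% of all genes tested, and those of Abcd2, Cd36, Vnn1, Pdk4, Angptl4 and Aldh3a2 ranged between 1.12 and 0.57, with Aldh3a2, the lowest of these, at percentile 97.3 of all genes. The 13 mitochondrial enzymes ranged between 0.06 (Acadvl) and 0.26 (Hadhb). Acadvl and Etfa were among the least variable 1% of genes tested, so that a difference of 0.16 in Acadvl had an SE of 0.06, while the larger difference of 0.83 in Vnn1 had an SE of 0.42.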

How the data were processed

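The labels describe liver RNA of 18 mice, 6 per diet, amplified with a 3' IVT kit, biotin-labelled and hybridised to an Affymetrix mouse array. The deposited series table holds linear intensity values of 45101 probe sets per array, and the authors' signal software and scaling are not given in these sources. Of the probe sets, 34945 have 1 gene symbol in the platform annotation, 932 several, 9160 none, and 64 are controls.

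Intensities were quantile-normalised, 16 was added and log2 taken. Per gene the brightest probe set with 1 symbol was kept if its mean log2 exceeded 4.69, the 40th percentile of non-control probe sets. limma 3.58.1 (R 4.3.3) fitted 3 diet means over 18 arrays (15 residual degrees of freedom, two-sided tests, Benjamini-Hochberg over 12880 genes at 0.05). The script was tested on simulated data. The median SE of a log2 change was 0.13, so 6 arrays per diet limit precision for small changes.

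Members, lists and the filter were chosen with earlier results of these data known. In each comparison, genes were named by an unadjusted p under 0.05 (up to 12, at least the 4 smallest), with Ppara, Cpt1a, Acat1 and Bdh1 always named. Other probe sets of a named gene were given where their sign was opposite or their size differed by over 2 times. Of the marker lists, adipocyte had 0 of 6 genes above the filter, hepatocyte 7 of 8, Kupffer cell 6 of 6, stellate 6 of 6, lymphocyte 3 of 6 and pancreatic acinar 3 of 6. Arrays correlated at 0.968 to 0.988, with no duplicates. Alternatives covered scaling, the added value, the filter, probe set choice, the prior, array weights, the arrays fitted, a replicate block and leaving out each mouse.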

Additional observations from a re-analysis of the deposited data

Results flagged for a closer look

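Values far from the other 5 mice of their diet, by Dixon's ratio of gap to range, occurred in 11 of 114 gene-diet combinations. For independent combinations chance gives about 1 in 20. The members vary together in the same mice, so the combinations are not independent and that share is no test of the 11. Fabp1 had identical values in all 1% mice and could not be flagged there. Of the 11 values, 8 were control replicate 3. Its median deviation over the members, 0.18, was also far from the other control mice, whose nearest value was -0.13. The log2 levels of that mouse were 10.28 for Cd36, 10.42 for Cpt2, 12.44 for Acadm and 11.505 for Eci1, and 7.75 for Abcd2, 9.66 for Decr2, 10.14 for Pex11a and 11.44 for Vnn1. All of these were the highest of their group.

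The other 3 values belonged to different mice. Pdk4 in 0.05% replicate 2 was the lowest of its diet at 6.90, with the nearest mouse at 7.89. Etfa in 1% replicate 1 was lowest at 11.71, and Etfb in 1% replicate 6 was highest at 11.70.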

How the results depend on the processing

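No named change passed the adjusted p of 0.05 under any alternative run, the lowest being 0.141 (Acot2, 1% against control, without control replicate 3). The count of genes passing for 1% against control (1) was 0 with values as deposited, with the mean over probe sets, with only the 12 arrays compared and with the replicate block, and 0 to 3 when 1 mouse was left out. For 0.05% against control (0) it was 0 to 1 with 1 mouse left out, and for 1% against 0.05% (0) it was 10 with only 12 arrays, 2 at an adjusted p under 0.10 and 0 to 1 with 1 mouse left out. The members at an unadjusted p under 0.05 for 1% against control (10) numbered 2 with values as deposited, 5 with a median shift and 1 at an unadjusted p under 0.01, and 5 to 16 with 1 mouse left out. For 0.05% against control (1) they numbered 2 without the filter, 2 with the filter at the 60th percentile, 2 with the mean of probe sets, 3 with trend and robust and 10 with array weights, and 1 to 15 with 1 mouse left out. For 1% against 0.05% (1) they numbered 2 with the mean of probe sets, 2 with trend and robust and 3 with only 12 arrays, and 1 to 2 with 1 mouse left out. The share of all genes called can differ between runs and is not given here, so these member counts describe the processing only.

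The median change of the members ranged over 0.09 to 0.23 at 1% and 0.11 to 0.23 at 0.05%, both relative to control, and over -0.04 to 0.04 between the doses. Replicate numbers did not pair the mice (correlations of same-numbered deviations from -0.46 to 0.31, n = 18 pairs). With the replicate block, the members at an unadjusted p under 0.05 numbered 7 at 1% and 1 at 0.05%, both relative to control, and 1 between the doses. The share of all genes called with the block is not given here.

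Changes of sign occurred for Ppara, Cpt1a and Fabp1 alone among named changes, all of them near 0. Ppara (1% against control) was -0.042 as deposited, -0.057 with the mean of probe sets and -0.060 to 0.15 with 1 mouse left out. Cpt1a (1% against 0.05%) was -0.027 as deposited and -0.040 to 0.074 with 1 mouse left out. Fabp1 was -0.10, -0.053 and -0.041 at 1% relative to control (as deposited, median shift, mean of probe sets), -0.083, -0.080 and -0.042 at 0.05% relative to control, and -0.021 as deposited between the doses. The Fabp1 scalings and the correlation without control replicate 3 (0.49, against 0.56) were chosen after seeing the data. The cause of these moves was not tested.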

Other observations

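Fatty acid synthesis genes were counted beside the oxidation genes. All 9 lipogenesis genes had a lower mean in the 1% mice than in the control mice, with a median of -0.67, 5 of them at an unadjusted p under 0.05 and 0 passing limma's adjusted p (lowest 0.299). Over all genes 50.6% lay below 0 and 4.49% were lower at that unadjusted threshold. In the 0.05% mice 8 of 9 were lower than in control mice, with a median of -0.14 and 0 at the unadjusted threshold, against 53.1% below 0 over all genes. Fasn, the fatty acid synthase, lay at 9.48, 9.91 and 10.34 (lowest, median and highest) in the 1% mice, against 9.79, 11.41 and 12.58 in the control mice. In single mice the list and the members did not simply oppose each other. Control replicate 3 had a lipogenesis deviation of 0.88 with a member deviation of 0.18, while 0.05% replicate 2 had -0.38 and -0.24.

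Of the fasting and gluconeogenesis genes (Pck1, G6pc, Igfbp1 and Tat, 4 of 5 listed measured), 4 of 4 had a lower mean in the 1% mice than in the control mice, with a median of -0.26, and 3 of 4 in the 0.05% mice, with a median of -0.16. Tat, a tyrosine-degrading aminotransferase, differed by -1.08 ± 0.30 at 1% (limma adjusted p = 0.306). Tat was the single one at an unadjusted p under 0.05, and none passed the adjusted p. Of all genes, 50.6% lay below 0 at 1% and 53.1% at 0.05%, and 4.49% were lower at the unadjusted threshold at 1%. The list's deviation was -0.74 to 0.07 in the 1% mice and -0.59 to 0.45 in the 0.05% mice, against -0.53 to 0.63 in the control mice, where control replicate 3 was highest. Its part in the members' levels was not tested. Of 10 clock genes 4 were higher at 1% and 5 at 0.05% than in control mice, with medians of -0.14 and 0.00. Their single differences ran from -0.76 to 0.25 at 1% and from -0.90 to 1.05 at 0.05%, so the medians hide opposite changes. Shares of all genes above 0 were 49.4% at 1% and 46.9% at 0.05%.

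Of the omega-oxidation genes, Cyp4a14, a fatty acid hydroxylase, lay at 11.40, 12.03 and 12.79 in the 1% mice, against 8.37, 9.69 and 12.39 in the control mice. The difference was 2.05 on the log2 scale, the largest of the companions, and 2 of the 6 1% mice exceeded every control mouse. The control mice were wide apart in Cyp4a14 (SD 1.42). No omega-oxidation gene passed limma's adjusted p at 1%, the lowest being 0.401. In the 0.05% mice it spanned 8.26 to 12.67, which covers nearly the whole range of both other diets.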
